A study of Mus musculus with 8 samples.

Results

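The genes described here are the enzymes that hydroxylate and crosslink collagen and the chaperone that folds it. They were chosen by name: 5 lysyl oxidases (Lox, Loxl1, Loxl2, Loxl3 and Loxl4), 3 lysyl hydroxylases (Plod1, Plod2 and Plod3), the prolyl 4-hydroxylase catalytic subunit P4ha1 and the collagen chaperone Serpinh1. All 10 were found among the 23008 mouse genes of the deposited table, and all 10 reached the mean level, 10 normalised reads, that was asked of a tested gene.

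RNA was measured by sequencing in gastrocnemius, a calf muscle, of C57BL/6J mice without a disease allele. Every animal had been injected into the tail vein with AAV9, a viral vector that reaches muscle, carrying an epigenome editing construct named GNDM, so that the controls carry the vector and the construct too. In 4 libraries the guide RNA was m31, which targets the laminin gene Lama1, and in 4 it was a non-targeting control guide. Muscles were collected 11 weeks later. The treatment protocol gives an age at injection of 7 weeks and the series design one of 7 to 12 weeks; the dose is not stated. The labels do not say that each library came from its own animal, so the p-values reflect sample-to-sample spread that may be technical in part.

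Collagen chains are modified in the endoplasmic reticulum before they leave the cell. Prolyl 4-hydroxylase makes the hydroxyproline that keeps the triple helix stable at body temperature, lysyl hydroxylases make the hydroxylysine that is used for sugar attachment and for the stronger kind of crosslink, and Serpinh1 (HSP47) binds the folded procollagen helix and travels with it. Outside the cell, the copper enzymes of the lysyl oxidase family turn lysine and hydroxylysine side chains into aldehydes, which then join neighbouring collagen or elastin molecules. In muscle, fibrillar collagen is made mainly by fibroblasts and tendon cells, and crosslinked collagen is known for making fibrotic muscle stiff.

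Values are normalised reads, that is, read counts divided by 1 size factor per library. The libraries held 25157486 to 39210248 reads in mouse genes. Lama1, the targeted gene, averaged 216 ± 93.6 (SD, n = 4) normalised reads under m31 and 1.61 ± 2.02 (SD, n = 4) under the control guide, with limma's adjusted p = 0.00372, so the labels and the target were in accord. In m31 replicates 1 to 4 it had 209, 295, 273 and 86.5 normalised reads, the least in replicate 4, the library that also stands apart below. The muscle fibre markers (Ckm, Acta1, Myh4, Myh1, Tnnt3, Ttn, Des and Mb) summed to 3947415 to 5247271 normalised reads per library, the highest sums of the marker lists used, and none of these 8 was at 0. As in any bulk sample, fewer cells of a type and less RNA per cell cannot be told apart. A pair of libraries stood apart in the genes described here, m31 replicate 4 and control replicate 3, and the main values that rest on them are given with and without them. Of these, the values for gene lists and for genes outside the 10 were added after the data were seen. Leaving out both libraries at once was also a choice made with these data known, since the pair was picked because it stood apart.

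Serpinh1 and P4ha1 were the most abundant of the 10 genes per exon length. With the control guide Serpinh1 had 974 ± 349 normalised reads per kb of exon and P4ha1 376 ± 120 (mean ± SD, n = 4). Loxl1 followed at 215 ± 83.5, Plod1 at 203 ± 24.0, Plod3 at 125 ± 11.9 and Loxl2 at 125 ± 47.5 on the same scale. Lox stood at 70.4 ± 32.8, Loxl3 at 37.2 ± 12.3, Plod2 at 17.5 ± 6.33 and Loxl4 at 15.9 ± 7.21. Between neighbours in this order, the ranges of the control libraries were apart for Serpinh1 over P4ha1 and for Plod1 over Plod3, and overlapped for the other 7 pairs. With m31 those same pairs were apart, as was Lox over Loxl3, and the other 6 overlapped. Lox was nevertheless above Loxl3, and Loxl3 above Plod2, in each of the 8 libraries. Lengths are the union of annotated exons in GENCODE M21 (GRCm38), which includes exons that muscle may not use.

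All 10 are protein-coding genes, placed here by that annotation. Among the lysyl oxidases, Loxl1 lies on the minus strand of chromosome 9 (58287738 to 58313186), Loxl2 on the plus strand of chromosome 14 (69609068 to 69695834), Loxl3 on the plus strand of chromosome 6 (83034173 to 83052562) and Loxl4 on the minus strand of chromosome 19 (42593982 to 42612813). Of the hydroxylases, Plod1 lies on the minus strand of chromosome 4 (147909753 to 147936767), Plod2 on the plus strand of chromosome 9 (92542223 to 92608428), Plod3 on the plus strand of chromosome 5 (136987019 to 136996648) and P4ha1 on the plus strand of chromosome 10 (59323296 to 59373304). Serpinh1 lies on the minus strand of chromosome 7 (99345376 to 99353239). The family is thus spread over 9 chromosomes, with Loxl1 and Plod2 the 1 pair on the same chromosome.

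**Figure D1:**
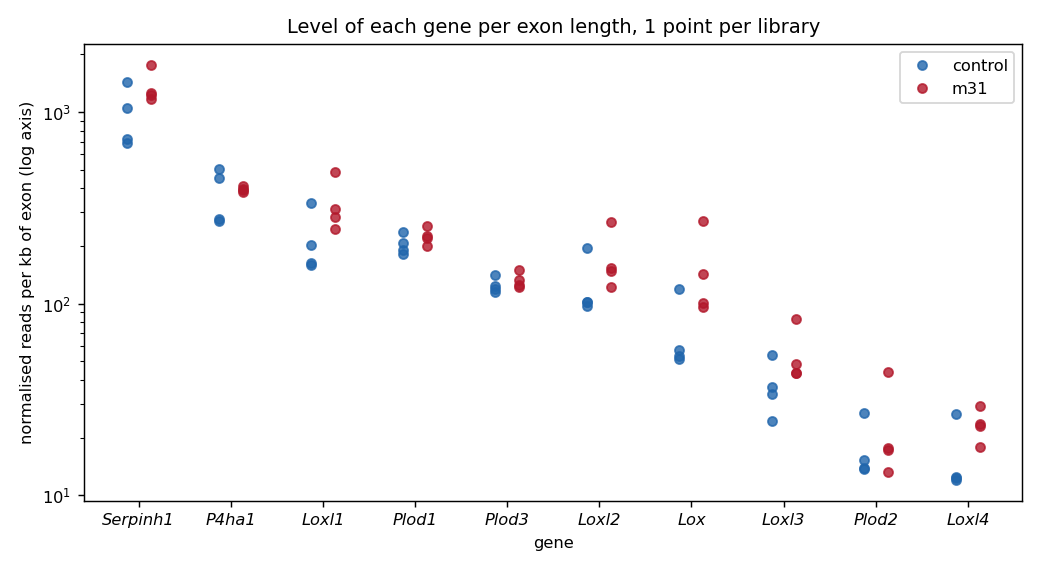
Normalised reads per kb of exon (log axis) for each gene, ordered by the control mean, with 1 point per library, blue for the control guide and red for m31. Serpinh1 stood highest, between 687 and 1763, and Loxl4 and Plod2 lowest, at no more than 29.3 and 44.1.

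None of the 10 genes passed the test between the guides. The test was limma on log2(value + 1) over 15960 genes, with p adjusted by the Benjamini-Hochberg method and a threshold of 0.05, which 0.00627% of all genes tested passed (1 gene, Lama1). The adjusted p of the 10 lay between 0.647 and 0.914, and edgeR's quasi-likelihood test and DESeq2 on recovered reads called 0 of the 10 too, where they called 0.00618% and 0.164% of all genes with an adjusted p. At an unadjusted p under 0.05, 4 of the 10 were higher with m31 (Lox, Loxl1, Loxl4 and Serpinh1), beside 3.76% of all genes tested. All 10 fitted differences were above 0, as were 51.3% of all genes tested, and their median was 0.49 on the log2 scale against 0.01 over all genes. Without m31 replicate 4 the median was 0.29, 9 of the 10 were above 0 and 1 (Lox) had an unadjusted p under 0.05, as did 3.2% of all genes in that direction. Without control replicate 3 the median was 0.72 and 7 of the 10 had such a p, beside 6.32% of all genes. The groups overlapped for each of the 10, while they did not overlap, with m31 higher, for 1.84% of all genes. For 9 of the 10 (all but P4ha1) m31 replicate 4 was the highest m31 library, as for 29.8% of all genes, and for 9 (all but Plod3) control replicate 3 was the highest control library, as for 31.8%.

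Lox, the first described enzyme of the lysyl oxidase family, had the largest difference of the 10. In m31 replicates 1 to 4 it had 683, 481, 461 and 1292 normalised reads, and in control replicates 1 to 4 it had 273, 245, 571 and 256. All m31 libraries were above 3 of the control libraries, while control replicate 3 lay above m31 replicates 2 and 3. The means were 729 ± 389 and 336 ± 157 (SD, n = 4 each), and on the log2(value + 1) scale m31 exceeded control by 1.08 ± 0.34 (SE), with a 95% interval from 0.32 to 1.83 that is not adjusted for the number of genes. Its adjusted p by limma was 0.647 and its unadjusted p 0.00943, which ranked 226 among the 15960 genes. The difference was 0.76 without m31 replicate 4 and 1.36 without control replicate 3. Lox (ENSMUSG00000024529) lies on the minus strand of chromosome 18, from 52516067 to 52529867 in GRCm38, and an annotated antisense transcript outside the deposited table shares exon bases with it.

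Loxl1, the family member known for crosslinking elastin, had more reads per kb of exon than Lox in each library. Its values were 1028, 936, 806 and 1611 normalised reads with m31 and 522, 538, 1110 and 664 with the control guide. The m31 libraries exceeded control replicates 1, 2 and 4, and control replicate 3 lay above all of them but m31 replicate 4. The difference was 0.65 ± 0.26 (SE; 95% interval 0.08 to 1.21; limma's adjusted p = 0.720), 0.45 without m31 replicate 4 and 0.89 without control replicate 3.

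Loxl2, Loxl3 and Loxl4 carry scavenger receptor domains ahead of the catalytic domain, and Loxl2 is known to act on the type IV collagen of basement membranes. Loxl2 stood at 656, 828, 804 and 1441 normalised reads with m31 and at 554, 553, 1058 and 528 with control, for a log2 difference of 0.47 ± 0.26 (SE; 95% interval -0.11 to 1.05). Loxl3 stood at 199, 223, 201 and 383 against 156, 170, 247 and 112, a difference of 0.55 ± 0.26 (95% interval -0.02 to 1.12). Here too m31 replicate 4 and control replicate 3 were the highest of their groups. Without m31 replicate 4 the difference of Loxl2 was 0.24 and that of Loxl3 0.33, and without control replicate 3 they were 0.71 and 0.75. Loxl4, at 75.0, 98.8, 96.5 and 123 against 51.9, 52.5, 112 and 50.6, had a difference of 0.62 ± 0.26 (95% interval 0.03 to 1.20), 0.50 without m31 replicate 4 and 0.90 without control replicate 3. It had the fewest reads of the 10 genes, 38 to 154 per library, and control replicates 1, 2 and 4 lay close together below all m31 libraries. Limma's adjusted p was 0.785 for Loxl2, 0.735 for Loxl3 and 0.723 for Loxl4. Exons of Loxl3 overlap those of Htra2 on the other strand, and exons of Loxl2 those of the antisense gene Gm27177. Without a stated strand setting, reads of such partners cannot be told apart.

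The 5 lysyl oxidases together summed, in normalised reads, to 2642, 2567, 2368 and 4851 for m31 replicates 1 to 4 and to 1557, 1559, 3098 and 1610 in control replicates 1 to 4. The sums of 3 m31 libraries therefore lay between those of control replicate 3 and the other 3 control libraries. In all 5 genes m31 replicate 4 was the highest m31 library and control replicate 3 the highest control library, and 13.3% of all genes tested showed that pair of positions. Without these libraries, the remaining 3 m31 libraries were above the remaining 3 control libraries for all 5 lysyl oxidases and for Serpinh1. The same was so for 8.49% of all genes. Over those 6 libraries limma's smallest adjusted p of the 10 genes was 0.120. The pair left out was picked because it stood apart in these same genes, and control replicate 3 was the highest control library for each gene named here. Leaving that library out favours such a separation and a small p, so neither is independent evidence. The share over all genes is no matched background.

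**Figure D2:**
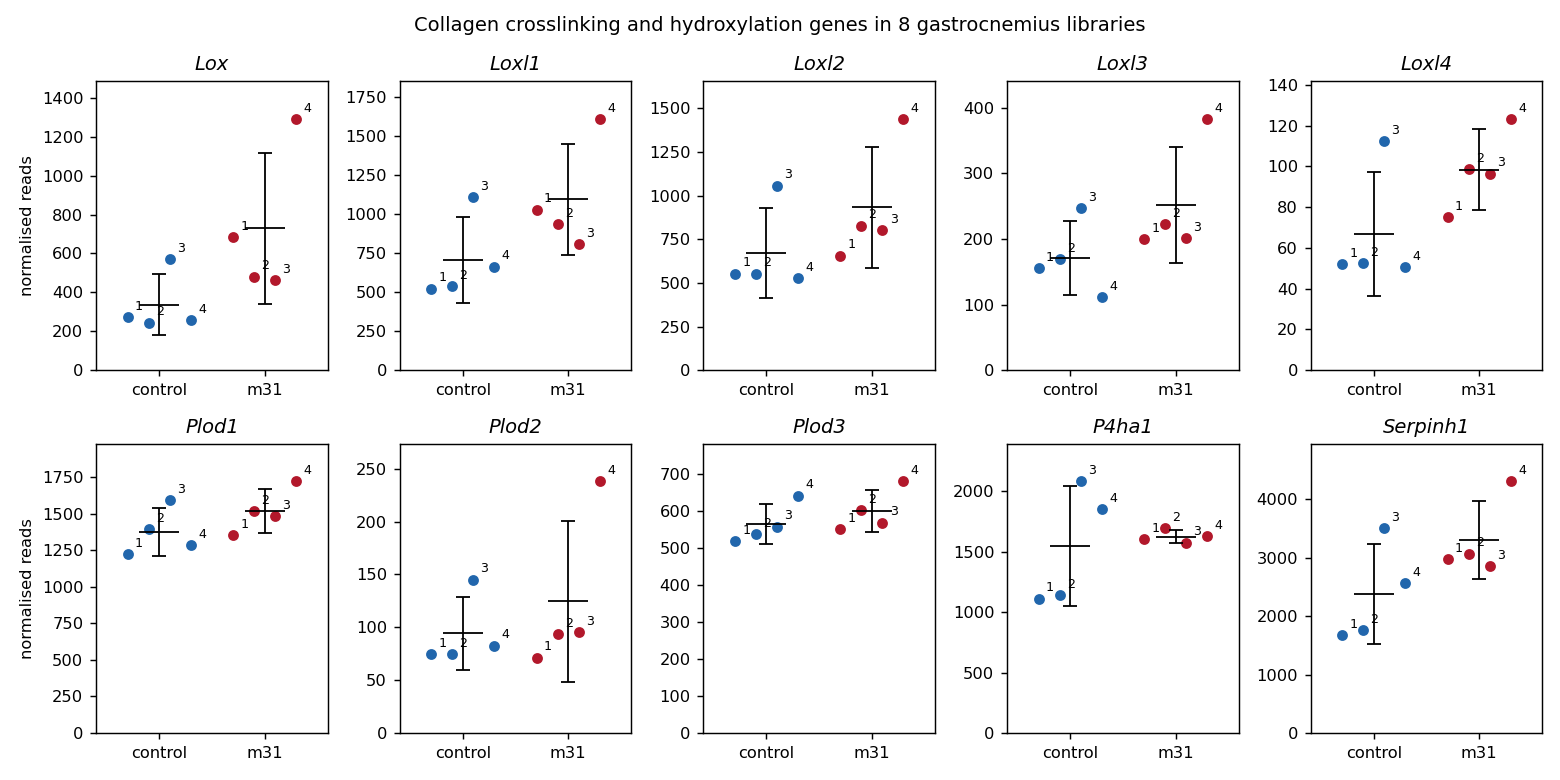
Normalised reads of each gene (linear axis from 0) in the control (blue) and m31 (red) libraries, with the replicate number beside each point and the mean ± SD as black bars (n = 4 each). For the lysyl oxidases m31 replicate 4 and control replicate 3 are the highest of their groups, while for P4ha1 the m31 points lie between 1576 and 1693 and the control points between 1111 and 2081.

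The lysyl hydroxylases split by how much they varied. Plod1, which hydroxylates lysines within the collagen helix, stood at 1353, 1519, 1483 and 1721 normalised reads with m31 and at 1222, 1397, 1594 and 1287 with the control guide. Plod3, which also adds the sugars to hydroxylysine, stood at 550, 602, 568 and 679 against 518, 538, 557 and 641. Over all 8 libraries these were the steadiest of the genes, with a root mean square deviation of 0.15 and 0.12 on the log2 scale, and with coefficients of variation of 10.03 and 11.8% for Plod1 and of 9.56 and 9.58% for Plod3 with m31 and control. The differences were 0.15 ± 0.10 (SE; 95% interval -0.09 to 0.38) for Plod1 and 0.09 ± 0.10 (95% interval -0.14 to 0.32) for Plod3, with limma's adjusted p = 0.835 and 0.893. Exons of Plod3 overlap those of Znhit1 on the other strand.

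Plod2 hydroxylates the lysines of the telopeptides, the ends of the collagen molecule where crosslinks start, and is known for its part in fibrosis. It was scarce, at 71.2, 93.4, 95.6 and 238 normalised reads with m31 and 74.5, 74.4, 145 and 82.6 with the control guide. A single library, m31 replicate 4, stood at 2.74 times the mean of the other m31 libraries, the largest such ratio of the 10 genes. The difference of 0.29 ± 0.35 (SE; 95% interval -0.47 to 1.06; limma's adjusted p = 0.893) turned to -0.07 without that library. An annotated gene of unknown status, Gm38391, shares exon bases with Plod2 on the other strand.

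P4ha1 encodes a catalytic subunit of the prolyl 4-hydroxylase and differed in pattern from the others. The m31 libraries stood at 1602, 1693, 1576 and 1631 normalised reads, the control libraries at 1111, 1138, 2081 and 1850. All m31 values thus lay between a lower and an upper pair of control values. The coefficient of variation was 3.09% with m31 and 32.0% with the control guide; whether the spreads differ was not tested. The upper pair, control replicates 3 and 4, were also the libraries with the fewest reads, 26188069 and 25157486. The log2 difference was 0.13 ± 0.19 (SE; 95% interval -0.28 to 0.54; limma's adjusted p = 0.914), and it was -0.01 without control replicate 1. P4ha1 was the gene of the 10 in which m31 replicate 4 was not the highest m31 library, its 1631 standing beside a mean of 1623 in the other 3.

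Serpinh1, the chaperone, was at 2980, 3072, 2856 and 4306 normalised reads with m31 and 1678, 1765, 3506 and 2566 with the control guide. Its m31 libraries were above 3 of the control libraries, and control replicate 3 was above all m31 libraries but replicate 4. The difference was 0.52 ± 0.22 (SE; 95% interval 0.03 to 1.01; limma's adjusted p = 0.720), 0.39 without m31 replicate 4 and 0.73 without control replicate 3.

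The promoters of Serpinh1 and P4ha1 are shown because these genes were the most abundant and parted in m31 replicate 4. The sequences are the 250 bases before the annotated start, from RefSeq (GRCm38.p6), which held 5 of the 10 genes (Plod1, Plod3, P4ha1, Serpinh1 and Loxl4). P4ha1 is read from the plus strand of chr10:59323046-59323295 and Serpinh1 from the minus strand of chr7:99353240-99353489. Capitals mark ACGTG, a form of the core that hypoxia-inducible factors recognise, and GGGCGG, the GC box, on either strand. Other forms of that core were neither marked nor counted. The motifs do not overlap each other here.
P4ha1: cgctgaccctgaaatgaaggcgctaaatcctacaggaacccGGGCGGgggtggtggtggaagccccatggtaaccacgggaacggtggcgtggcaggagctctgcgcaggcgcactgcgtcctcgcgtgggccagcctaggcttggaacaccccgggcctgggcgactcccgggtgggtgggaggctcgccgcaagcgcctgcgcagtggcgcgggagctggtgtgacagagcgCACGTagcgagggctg
Serpinh1: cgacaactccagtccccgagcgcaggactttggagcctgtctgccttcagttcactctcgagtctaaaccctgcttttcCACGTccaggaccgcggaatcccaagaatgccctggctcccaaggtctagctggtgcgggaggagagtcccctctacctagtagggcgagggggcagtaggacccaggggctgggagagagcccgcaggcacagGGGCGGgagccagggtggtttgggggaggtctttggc
Each of these windows held 1 ACGTG match and 1 GC box. The ACGTG match began 16 bases before the annotated start in P4ha1 and 171 bases before it in Serpinh1. Among 27025 promoter windows of the same length, 16.6% held ACGTG and 32.9% held GGGCGG. The heat shock core GAANNTTC was in neither window and in 6.78% of all windows. A match is a description of the letters, not of a bound site.

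**Figure D3:**
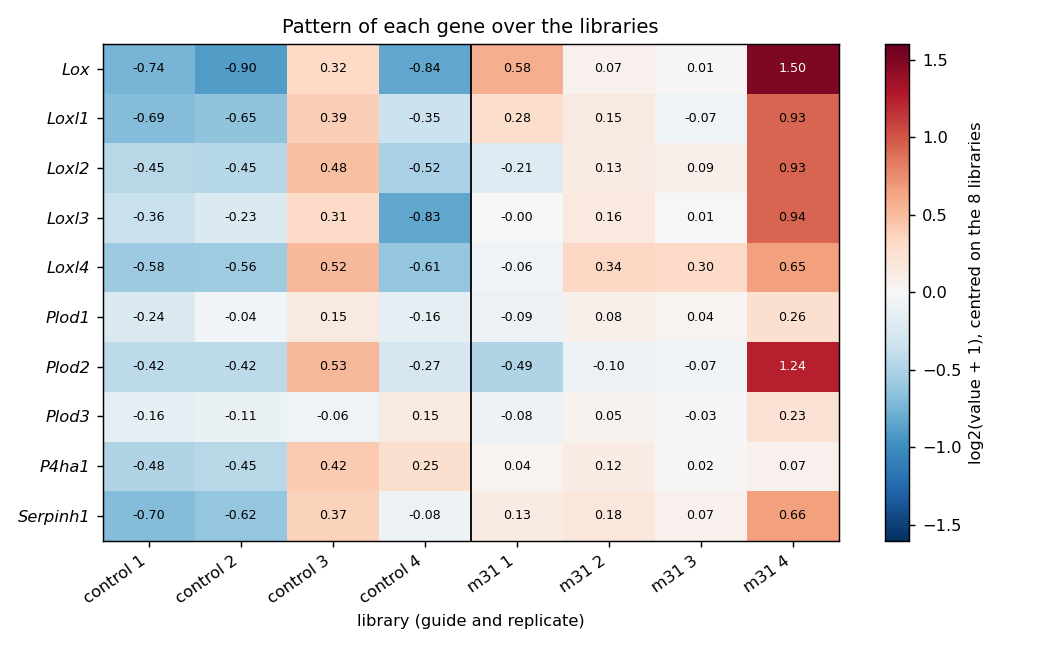
Log2(value + 1) of each gene (rows) in each library (columns), centred on the mean of the 8 libraries, with red above and blue below it. Lox reached 1.50 and Plod2 1.24 in m31 replicate 4, where P4ha1 stood at 0.07.

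The genes nearest in pattern were sought among the 10701 genes that averaged 100 normalised reads or more, by the root mean square difference between centred log2 profiles over the 8 libraries. For Lox these were Igsf10 (0.27), the collagen V chain gene Col5a2 (0.27) and Pamr1 (0.28), against a median of 0.80 over all those genes. Loxl1 had as its nearest the chemokine gene Ccl9 (0.15), Serpinh1 (0.15) and F13a1 (0.16), which encodes a subunit of coagulation factor XIII, itself a protein crosslinker. Nearest to Loxl2 were Myof (0.10), which encodes the membrane protein myoferlin, Pdpn (0.12) and Dpysl3 (0.12). Loxl3 was nearest to Arhgap45 (0.09), Gpnmb (0.10), a gene known from macrophages, and Srpx2 (0.10), and Loxl4 to Chpf (0.11), an enzyme gene of chondroitin synthesis, Fam114a1 (0.14) and S1pr2 (0.14). For Plod2 they were Pld4 (0.12), Fstl1 (0.14) and Inpp5d (0.15), of which Pld4 and Inpp5d are known from blood-derived cells.

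P4ha1 was nearest to Kctd21 (0.07), Pdia6 (0.07) and Hspa13 (0.09). Pdia6, a disulphide isomerase gene of the endoplasmic reticulum, showed a similar split, save that m31 replicate 2 lay above control replicate 4, at 1089, 1108, 1815 and 1598 normalised reads in control replicates 1 to 4 and 1418, 1615, 1422 and 1441 with m31. Hspa13, which encodes a chaperone-like protein of that compartment, stood at 285, 258, 496 and 399.8 in control replicates 1 to 4 and 333 to 364 with m31. Serpinh1 was nearest to Rab8b (0.11), Ckap4 (0.12), a membrane protein gene of the endoplasmic reticulum, and Dpp4 (0.13). For the steady genes, Plod1 was nearest to Csk, Wasl and Tgm2 (0.05, 0.05 and 0.06) and Plod3 to Pphln1, Cd164 and Ids (0.05, 0.05 and 0.06).

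**Figure D4:**
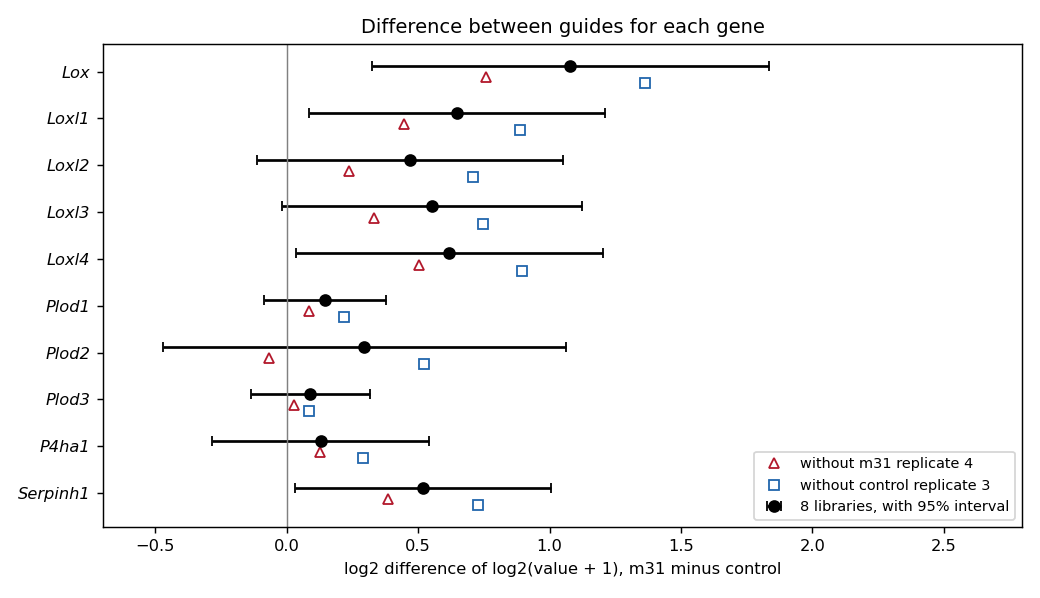
Log2 difference, m31 minus control, of each gene (black points) with its unadjusted 95% interval from limma, and the difference without m31 replicate 4 (red triangles) or without control replicate 3 (blue squares). Without m31 replicate 4 the differences ran from -0.07 (Plod2) to 0.76 (Lox).

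Ratios within a library do not depend on how libraries were scaled. The ratio of Lox to Loxl1 was 0.66, 0.51, 0.57 and 0.80 in m31 replicates 1 to 4 and 0.52, 0.46, 0.51 and 0.39 in control replicates 1 to 4. The groups overlapped narrowly, the lowest m31 ratio lying below the highest control ratio. The log2 difference was 0.43, with p = 0.0857 in an exact two-sided permutation test and 0.343 adjusted over the 4 ratios compared. The 70 arrangements of the libraries allow no p below 0.0286. Plod2 to Plod1, the telopeptide against the helical hydroxylase, was 0.053, 0.062, 0.064 and 0.14 with m31 and 0.061, 0.053, 0.091 and 0.064 with the control guide (log2 difference 0.15, exact permutation p = 0.714). It turned to -0.15 without m31 replicate 4. The 2 catalytic subunits P4ha1 and P4ha2 stood at a ratio of 1.71 ± 0.21 with m31 and 1.79 ± 0.48 with the control guide (SD, n = 4 each; log2 difference -0.04, exact permutation p = 0.971), a difference that turned to 0.12 without control replicate 3 and to 0.0026 without m31 replicate 1.

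Serpinh1 per read of its client mRNAs Col1a1 and Col1a2, the chains of type I collagen, was 0.14, 0.094, 0.090 and 0.040 in m31 replicates 1 to 4 and 0.080, 0.10, 0.14 and 0.21 in control replicates 1 to 4. The lowest ratio was that of m31 replicate 4, where Serpinh1 was highest. The log2 difference was -0.60 (exact permutation p = 0.314, adjusted p = 0.629 over the 4 ratios), and it was -0.24 without m31 replicate 4 and -0.35 without control replicate 4.

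**Figure D5:**
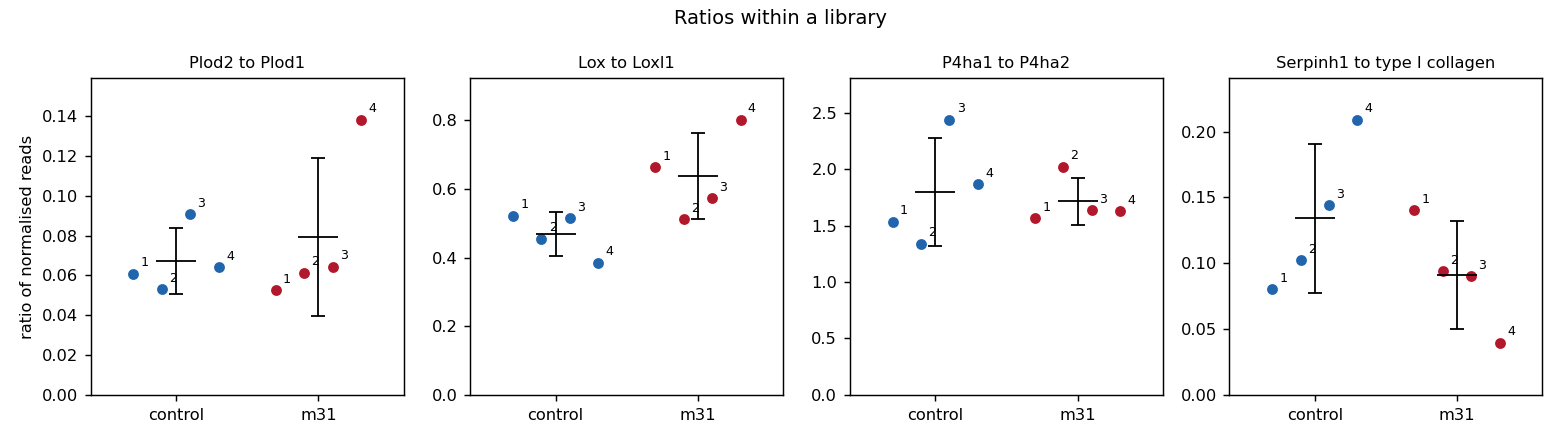
Ratios of normalised reads within each library (linear axis from 0, not corrected for length), control in blue and m31 in red, with replicate numbers and the mean ± SD (n = 4 each). In m31 replicate 4 the ratio of Plod2 to Plod1 was the highest (0.14) and that of Serpinh1 to type I collagen the lowest (0.040).

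Of 14 other genes of collagen modification and folding in the endoplasmic reticulum, 0 passed limma's test. Differences above 0 were found for 12, as for 51.3% of all genes tested. The median of the 14 was 0.25 against 0.01 over all genes. At an unadjusted p under 0.05 there were 2, P4ha3 and P3h2, both higher, beside 3.76% of all genes. P4ha3 reached the mean of 10 asked of a tested gene only through m31 replicate 4. It was therefore not tested without that library, and its place in this count rests on it. Without m31 replicate 4 the median was 0.16 (9 of 13 above 0) and without control replicate 3 it was 0.26. P4ha3, a rare catalytic subunit, had 78.5 normalised reads in m31 replicate 4, 2.70 to 10.01 in the remaining m31 libraries and 1.33 to 4.50 under the control guide. P3h2, a prolyl 3-hydroxylase, had 151 ± 34.5 with m31 and 105 ± 37.7 with control (log2 difference 0.55, limma's adjusted p = 0.720), and here control replicate 3 was again the highest control library at 162. Fkbp10, a prolyl isomerase whose loss gives brittle bones in humans, had 179, 213, 193 and 390 with m31 and 93.3 to 196 with control, a log2 difference of 0.60 (limma's adjusted p = 0.733) that was 0.35 without m31 replicate 4. The sum of these 14 genes ran from 12617 to 14149 normalised reads per library, a sum in which scarce genes such as P4ha3 and Fkbp10 weigh little.

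Of 7 genes of procollagen processing tested, 0 passed and all had differences above 0, as did 51.3% of all genes tested. The median of the 7 was 0.30. An unadjusted p under 0.05 was found for 2, both higher, beside 3.76% of all genes. The median was 0.08 without m31 replicate 4 and 0.38 without control replicate 3, with 6 of 7 above 0 each time. Pcolce, the enhancer of the C-terminal procollagen proteinase, stood at 1469, 1636, 1688 and 2715 normalised reads with m31 and 1358, 1148, 1563 and 1133 with the control guide (log2 difference 0.50, limma's adjusted p = 0.698). Control replicate 3 lay between the lowest m31 library and the others. Adamts3 and Adamts2, which cut the N-terminal propeptide, had differences of 0.56 and 0.36 (limma's adjusted p = 0.718 and 0.822).

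Among 13 collagen chains, the substrates, 0 passed and 12 had differences above 0, as did 51.3% of all genes tested. The median of the 13 was 0.67. An unadjusted p under 0.05 was found for 5, all higher, beside 3.76% of all genes. The median was 0.32 without m31 replicate 4 and 0.86 without control replicate 3. In all 13, m31 replicate 4 was the highest m31 library and control replicate 3 the highest control library, as for 13.3% of all genes. In m31 replicate 4 Col1a1 had 55871 normalised reads, beside 9342 to 14877 in m31 replicates 1 to 3 and 5235 to 10399 under control (log2 difference 1.33, limma's adjusted p = 0.669; 0.79 without that library). In that library Col1a1 was 4.34 times the mean of the other m31 libraries, where Lox was 2.39, Plod2 2.74 and Serpinh1 1.45 times that mean. Col12a1 and Col4a2 had differences of 1.07 and 0.43, and of 0.69 and 0.38 without m31 replicate 4. Of 10 elastic fibre genes, 0 passed and 9 were above 0, as were 51.3% of all genes tested. The median was 0.44, and 1 gene (Ltbp4) was higher at an unadjusted p under 0.05, beside 3.76% of all genes. Without m31 replicate 4 the median was 0.15, with 6 of 9 above 0, and without control replicate 3 it was 0.47. Ltbp4, a latent TGF-beta binding protein, had 0.44, Efemp2, which helps recruit Lox to elastic fibres, 0.43, and Emilin1 0.44; without m31 replicate 4 these were 0.39, 0.20 and 0.21.

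Genes that respond to stimuli known to raise these enzymes did not pass limma's test, which 1 of all 15960 genes tested passed. Whether hypoxia, TGF-beta or heat shock had a part in the differences above was not tested. Of 11 hypoxia-responsive genes 4 had differences above 0 (median -0.02), and 0 had an unadjusted p under 0.05. Over all genes tested 51.3% were above 0, and 3.76% had such a p and were higher. The hypoxia median was -0.003 without m31 replicate 4 and -0.02 without control replicate 3. Pfkfb3, a glycolytic regulator, was lowest in m31 replicate 4, with 3925 normalised reads beside 7281 to 12008 in m31 replicates 1 to 3. Ndrg1 and Slc2a1 had differences of -0.14 and -0.08. Of 9 TGF-beta responsive genes 6 were above 0 (median 0.05), and 0 had an unadjusted p under 0.05. Their median was 0.04 without m31 replicate 4 and 0.03 without control replicate 3. Ctgf in this list and Ero1a in the hypoxia list were not found under those symbols and are not in these counts. Postn, periostin, had 5250 normalised reads in m31 replicate 4, 1014 in control replicate 3 and 288 to 522 in the remaining 6 libraries, while Tgfb1 and Tgfbi had differences of 0.35 and 0.27. Of 8 heat shock genes 5 were above 0 (median 0.17), with Hsph1 at 0.29, Dnajb1 at -0.30 and Hspa1a at 0.40. With all 8 libraries 0 of them had an unadjusted p under 0.05. Their median was 0.26 without m31 replicate 4 and 0.30 without control replicate 3, with 6 of 8 above 0 each time. Without both libraries, a pair picked because it stood apart, the median was 0.38. Then 4 of 8 were higher at an unadjusted p under 0.05, beside 6.18% of all genes. Hspa1a stood at 204, 362, 719 and 616 in control replicates 1 to 4, with the same pair of libraries high as for P4ha1. With all 8 libraries, limma's smallest adjusted p in these 3 lists was 0.769.

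Markers of some other cell types were high in the same libraries as these genes. The 8 macrophage markers (none at 0) summed, in normalised reads, to 2442, 2988, 2344 and 5445 for m31 replicates 1 to 4 and to 1814, 1663, 3773 and 1929 in control replicates 1 to 4, with m31 replicate 4 and control replicate 3 the highest for all 8, as for 13.3% of all genes. The 8 tendon markers (none at 0) summed to 12395 to 29746 with m31, highest in replicate 4, and to 7647 to 15107 with the control guide, highest in replicate 3. The 8 fibroblast markers (none at 0) summed to 48288 to 75776 and 47106 to 64094, again highest in those libraries, with m31 replicate 2 next to m31 replicate 4 at 73479. Single markers did not all follow these sums. M31 replicate 4 was the highest m31 library for 8 of 8 tendon and 5 of 8 fibroblast markers, as for 29.8% of all genes. Control replicate 3 was the highest control library for 4 of 8 tendon and 7 of 8 fibroblast markers, as for 31.8% of all genes. Endothelial markers (8 of 8 present) summed to 11611 to 13280 and 11132 to 13052, and smooth muscle and pericyte markers (8 of 8 present, 7 tested) to 14962 to 19571 and 15858 to 18092. None of the marker genes tested passed limma's test, but differences above 0 were found for 8 of 8 tendon markers (median 0.62, 4 with an unadjusted p under 0.05) and 8 of 8 macrophage markers (median 0.52, 0 with such a p). They were found for 7 of 8 fibroblast markers (median 0.32, 3 with such a p), 6 of 7 smooth muscle and pericyte markers (median 0.34, 4 with such a p) and 7 of 8 endothelial markers (median 0.06, 0 with such a p). Muscle fibre markers had 0 of 8 above 0 (median -0.07, 0 with such a p). Over all genes 51.3% were above 0, the median was 0.01 and 3.76% had such a p and were higher. Pdgfrb, a pericyte receptor gene, was the 1 smooth muscle and pericyte marker of 7 tested whose groups were apart. It had 1628 to 1978 with m31 and 1228 to 1607 with control (log2 difference 0.35, limma's adjusted p = 0.647). Groups apart with m31 higher were found for 1.84% of all genes. Without m31 replicate 4 the medians were 0.30 for tendon, 0.28 for macrophage, 0.20 for fibroblast and 0.30 for smooth muscle and pericyte markers. In that order 2, 0, 0 and 4 markers were then higher at an unadjusted p under 0.05, beside 3.2% of all genes. Without control replicate 3 the medians were 0.71, 0.81, 0.41 and 0.30 in the same order. Then 4, 6, 5 and 4 markers were higher at such a p, beside 6.32% of all genes. Reads of the construct entry GNDM were lowest in m31 replicate 4, at 6157 normalised reads, and highest in control replicate 3, at 37989, the libraries with the highest lysyl oxidase sums of their groups. The part that cell makeup or construct level has in the differences above was not tested.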

How the data were processed

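Total RNA of mouse gastrocnemius was sequenced in 8 libraries, 4 with guide m31 and 4 with a control guide, taken from the sample titles. Per the labels' protocols, RNA was isolated with an RNeasy kit and libraries were made with NEBNext Ultra RNA. The deposited table gives the signal per gene as the authors' read counts divided by 1 size factor per library. STAR, DESeq2 and the human build GRCh38.p12 appear in the submitters' processing notes, with no version, although the identifiers are those of mouse genes. The sources used here do not give the counting program, strand setting or annotation. Of 11 value columns, 8 matched the labels' library names and the other 3 were not used. The 5 entries of the construct were kept out of totals and tests.

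Whole reads were recovered from the deposited signal (100% of values whole within 0.01 of a read). The log2(value + 1) scale was used with limma 3.58.1 (R 4.3.3, intensity trend) for 15960 genes with a mean of at least 10; the design foresaw this for normalised values. edgeR 4.0.16 and DESeq2 1.42.0 on the recovered reads, with 1 and 31 genes called, were alternatives, beside left-out libraries, the replicate block, filters, pseudocounts, scaling and library weights. Ratios were compared by exact permutation tests. The test was checked on simulated counts. The genes, lists and tests were chosen with earlier results of these data known. Named were every enzyme, up to 3 genes per list with the smallest unadjusted p, and the 3 genes nearest in pattern. Symbols were found for 22979 of 23008 identifiers. Gene positions come from GENCODE M21 (GRCm38). Depth was 25157486 to 39210248 reads, and the scarcest of the 10 genes had 38 to 154 reads per library, so the spread between libraries, not counting, limits most comparisons. Between libraries of 1 group, chi-square divided by its degrees of freedom was 14.3 to 57.9, so none was taken as a repeat of another.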

Additional observations from a re-analysis of the deposited data

Results flagged for a closer look

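In groups of 4 libraries, a library was marked when its gap to the nearest of the others took most of the group's range (Dixon's criterion at the 95% level). Of 28 groups examined, 9 were marked, where chance marks about 1 in 20. The same criterion marked 6.44% of all genes tested over the m31 libraries and 6.23% over the control libraries. The 28 groups share the same 8 libraries and are not independent, and 8 of the 9 marks fall on m31 replicate 4 or control replicate 3. The values below are the gap divided by the range. Control replicate 3 was far above the other control libraries for Lox (0.915), Loxl2 (0.950), Loxl4 (0.970) and Plod2 (0.884). M31 replicate 4 was far above the other m31 libraries for Loxl3 (0.873), Plod2 (0.854) and Serpinh1 (0.851), and for the ratio of Plod2 to Plod1 (0.862). For the ratio of P4ha1 to P4ha2, m31 replicate 2 was far above the other m31 libraries (0.853).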

How the results depend on the processing

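None of the 10 genes passed the threshold under any of the 19 alternatives tried, and 9 or 10 of them had differences above 0 in each. Over the libraries left out in turn, the number of all genes called was 1 to 2 (2 without m31 replicate 1 or control replicate 4); it was 3 without both m31 replicate 4 and control replicate 3, and 31 with DESeq2, which gave no adjusted p for 4047 genes. Leaving out 1 library, the difference of Plod2 ran from -0.069 (without m31 replicate 4) to 0.52, and that of P4ha1 from -0.010 (without control replicate 1) to 0.29. Leaving out 1 library, the log2 difference of the ratio of Plod2 to Plod1 ran from -0.15 to 0.31, that of P4ha1 to P4ha2 from -0.17 to 0.12, that of Lox to Loxl1 from 0.32 to 0.53 and that of Serpinh1 to type I collagen from -0.85 to -0.24; the cause was not tested. Over all alternatives Lox ran from 0.76 to 1.36, with adjusted p from 0.120 to 0.985. With the replicate number as a block, 1 gene and 0 of the 10 passed; same-numbered libraries deviated with correlations of 0.05, -0.05, -0.13 and -0.18, so the numbers were not taken to pair the libraries, and the blocked test of a ratio cannot give a p below 0.125.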

Other observations

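Levels relative to other genes of the same library were looked at after the values were seen, as a description with no test. Per 1000 reads of the 8 fibroblast markers, Lox stood at 14.1, 6.54, 7.76 and 17.1 in m31 replicates 1 to 4 and at 5.17, 5.19, 8.91 and 5.43 in control replicates 1 to 4. On this scale m31 replicates 1 and 4 were above all control libraries, and m31 replicates 2 and 3 lay below control replicate 3. Plod1 on the same scale ranged from 20.7 to 28.0 in m31 libraries and from 23.2 to 29.6 in controls.

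Per 1000 reads of type I collagen (Col1a1 and Col1a2), Plod2 stood at 3.36, 2.85, 3.03 and 2.19 in m31 replicates 1 to 4 and at 3.57, 4.32, 5.97 and 6.73 in control replicates 1 to 4. Its groups were apart on that scale, with m31 the lower, as were those of 15.9% of all genes tested. The m31 mean was below the control mean for 9 of the 10 genes and for 99.5% of all genes, so neither sets Plod2 or the 10 apart. Lox on the same scale stood at 32.2, 14.7, 14.6 and 11.9 against 13.1, 14.2, 23.5 and 20.8, so that m31 replicate 4, the library with the most Lox, had the least Lox per type I collagen read.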
